A study of Mus musculus with 2 samples.

Results

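The DNA replication genes described here were 40 protein-coding genes, chosen by name from those known to license, unwind, copy and repackage DNA, out of 55414 genes in the files. Both libraries came from nuclei of C2C12, a line of mouse myoblasts that divides in culture and can withdraw from the cell cycle to form muscle fibres. Nuclei of one library, called in situ polyadenylated, were fixed and incubated warm with a yeast enzyme, yPAP, that extends RNA 3′ ends with adenines, which lets untailed RNAs be primed as well. Nuclei of the other library, called standard, were fixed the same way and skipped both the enzyme and the warm incubation, so the effects of the 2 cannot be told apart. The warm incubation used the RNase inhibitor SUPERase-In, which the authors found did not keep longer transcripts from degrading in this step on tissue sections. Whether that happened in these nuclei was not tested. RNA was counted as unique molecular identifiers (UMIs) on a droplet platform. The line is a single clonal source and each group had 1 library, so no difference between the groups has a replicate check. Intervals of UMI counts and ratios cover counting error only, and those of medians cover the spread over genes. The interval of a share of nuclei treats the nuclei of 1 library as independent draws. None covers variation between libraries.

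After licensing in G1, when the Mcm helicase is loaded onto origins, S phase begins as Cdc45 and the GINS complex switch the helicase on and polymerases start the new strands. A sliding clamp holds the polymerases on the template, and chaperones and methyltransferases restore chromatin behind the fork. Many of these genes are known targets of E2F factors and are transcribed from late G1 into S phase, so their RNA marks cycling cells.

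To follow them, barcodes with more than 750 UMIs in the kallisto matrix, which the authors made by matching reads to transcripts, were taken as nuclei. This left 1335 in situ polyadenylated and 1123 standard nuclei, with medians of 1088 and 996 UMIs and totals of 1974289 and 1382804. The STAR matrix, made by aligning reads to the genome, held 1328 and 1123 of these barcodes with 11545281 and 6237950 UMIs. No retained barcode was shared between the libraries, and 13 were shared among all those deposited with the STAR matrix. The 15 myoblast genes had 865 and 1457 kallisto UMIs, and the most counted by kallisto were Des (360 UMIs in situ polyadenylated, 636 standard), Itga7 (175 and 228) and Ncam1 (136 and 235), while Myod1 had 15 and 13 and Msc 0 and 1.

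The promoters of the members were read from GRCm39, from 250 nt before to 50 nt into the canonical transcript's annotated start in GENCODE. The 4 spellings of the E2F site TTTCCCGC, TTTGGCGC, TTTCGCGC and TTTGCCGC were searched on both strands, and a palindromic site counts once on each. At least 1 match was found in 14 of 40 members (35%), against 600 of 21627 protein-coding promoters (2.77%). Matches numbering 2 or more were found in 7 members (17.5%) and in 0.120% of all promoters. TTTGGCGC was the most frequent, in 11 members (27.5%) and 0.680% of all. A further 50 replication genes outside the members held a match in 11 (22%), and 48 mitosis genes in 1 (2.08%). A match is a description of letters, not evidence of binding, and the 26 promoters with no match lack only these letters in this window. The 14 were those of Mcm3, Mcm4, Mcm5, Mcm6, Gins1, Cdc6, Cdt1, Gmnn, Dtl, Pola1, Pole, Rfc3, Atad2 and E2f1.

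The following windows show the match nearest the start for 8 of these members, written 5′ to 3′ on the gene's own strand with whole matches in capitals. They were chosen to span helicase, licensing, polymerase, clamp loader and entry factors.
Mcm5 (chr8:75835977-75836006, plus strand): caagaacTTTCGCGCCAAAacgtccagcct
Mcm6 (chr1:128287471-128287500, minus strand): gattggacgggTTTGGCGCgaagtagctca
Gins1 (chr2:150751494-150751523, plus strand): ggttgagcctaTTTGGCGCCAAAgcgagga
Cdc6 (chr11:98798656-98798676, plus strand): agtagagcggcTTTGGCGCga
Dtl (chr1:191307646-191307675, minus strand): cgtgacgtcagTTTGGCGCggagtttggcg
Pola1 (chrX:92675881-92675910, minus strand): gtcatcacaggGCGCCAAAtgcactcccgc
Rfc3 (chr5:151574665-151574694, minus strand): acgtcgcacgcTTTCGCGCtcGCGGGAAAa
E2f1 (chr2:154411790-154411819, minus strand): gtggctctttcGCGGCAAAaaggatttggc
The capitals of Gins1 form the palindrome of overlapping TTTGGCGC matches, and those of Mcm5 join TTTCGCGC to GCGCCAAA, the reverse complement of TTTGGCGC. Of the 22 matches in member promoters, with overlapping ones counted separately, 17 lay within 100 nt of the start. The positions of matches in all promoters were not counted, so the 17 cannot be read as clustering at the start. Counted in nt from the start, the centre of the nearest match was at -33 in Mcm6 and at 9 in Dtl.

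Together the 40 members had 2518 kallisto UMIs in in situ polyadenylated nuclei (95% Poisson interval 2421 to 2618) and 4157 in the standard nuclei (4032 to 4285). That was 1275 and 3006 UMIs per 1000000 UMIs of the library (CPM). At least 1 member UMI was present in 70.3% of in situ polyadenylated nuclei (exact binomial interval 67.7 to 72.7) and 89.7% of standard nuclei (87.7 to 91.4). By STAR the members had 10403 and 18247 UMIs, or 901 and 2925 CPM, and were found in 97.7% and 99.9% of nuclei. All 40 members had a higher CPM in the standard library by either matrix. The median protein-coding gene was also higher in the standard library, with a log2 ratio of CPM, in situ polyadenylated over standard, of -1.19 by kallisto and -1.92 by STAR over genes that had 50 or more UMIs in each library. The ratios that follow are relative ones, with that median subtracted, so that 0 is the median of those well-counted protein-coding genes.

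**Figure D1:**
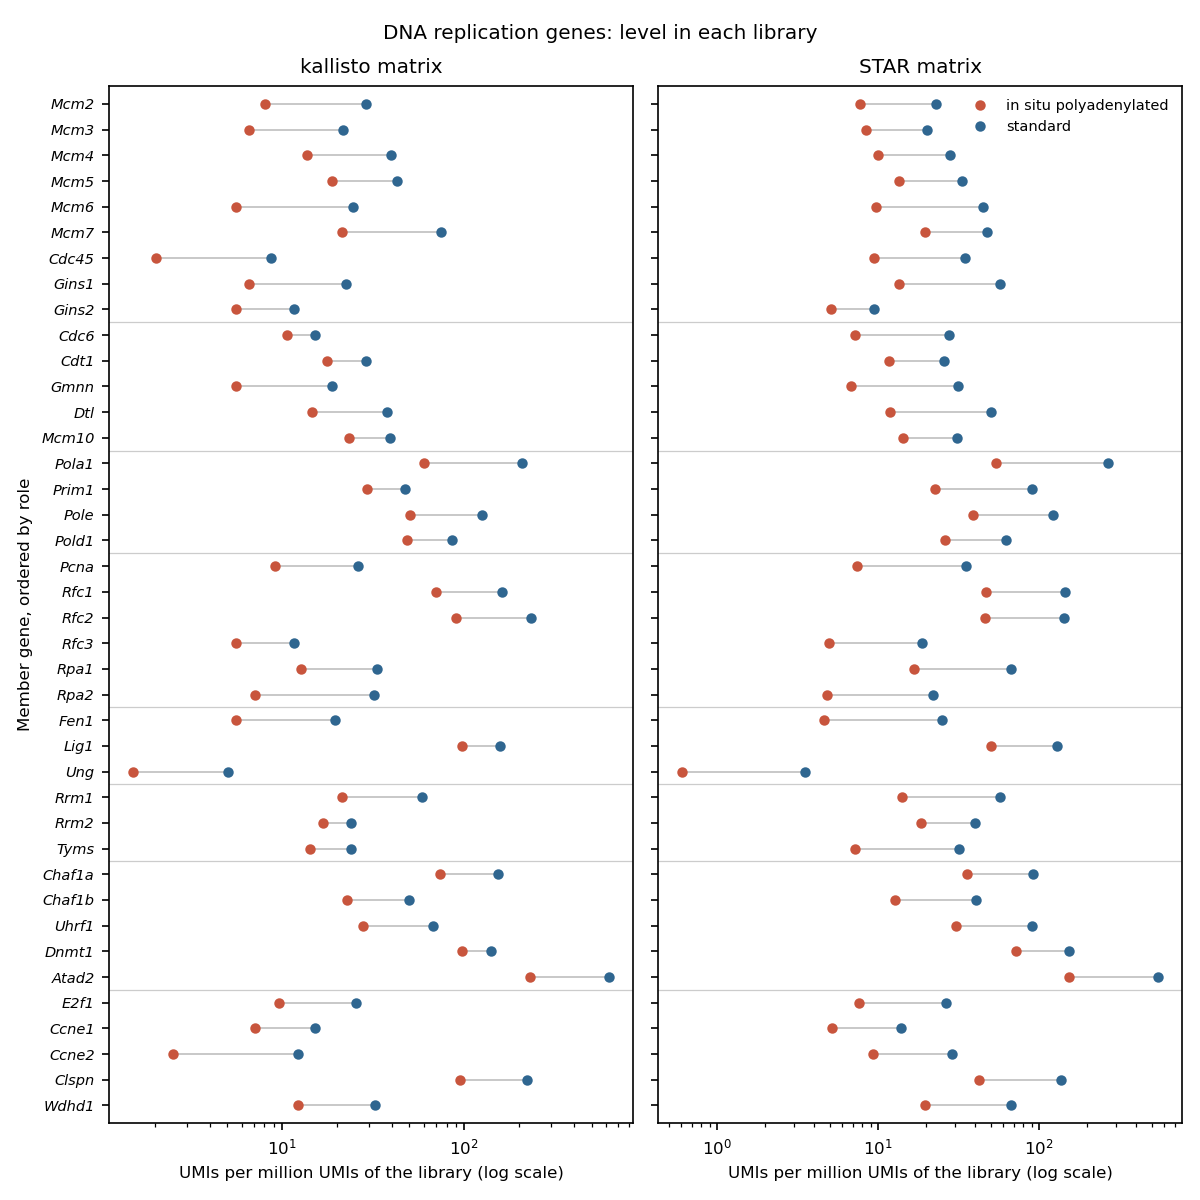
CPM (log axis) of each of the 40 members in the in situ polyadenylated and standard library, by kallisto (left) and STAR (right), with members grouped by role. Each standard point lies to the right of its in situ polyadenylated point, and Atad2 has the highest level in both libraries by either matrix.

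On this relative scale the members' median lay near that of all protein-coding genes, on opposite sides of 0 by the 2 matrices. By kallisto, the median relative log2 ratio of the 38 members with at least 20 UMIs was -0.14 (order-statistic interval -0.27 to 0.093), beside -0.21 over 8016 protein-coding genes with the same minimum. By STAR, the median of all 40 members was 0.24 (-0.018 to 0.35), beside 0.062 over 12382 genes. Past a 2-fold difference by kallisto, 0 of 38 members were higher in the in situ polyadenylated nuclei, where 2.76% of all protein-coding genes were, and 1 was lower, where 10.6% were. By STAR, 1 of 40 was at least 2-fold higher (13.1% of all genes) and 0 were lower (2.21%). The member lower by kallisto was Ccne2 and the member higher by STAR was Gins2. By kallisto 15 members lay above 0 and 23 below, where 2852 and 5153 of the 8016 protein-coding genes did. By STAR 25 lay above and 15 below, where 6709 and 5673 of the 12382 did. Of 38 members, 11 lay above 0 by both matrices, 10 below 0 by both, 13 below by kallisto and above by STAR, and 4 the other way. The 2 matrices' relative ratios had a Spearman rho of 0.49 across these 38 genes, which share libraries and barcodes and are not independent replicates.

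**Figure D2:**
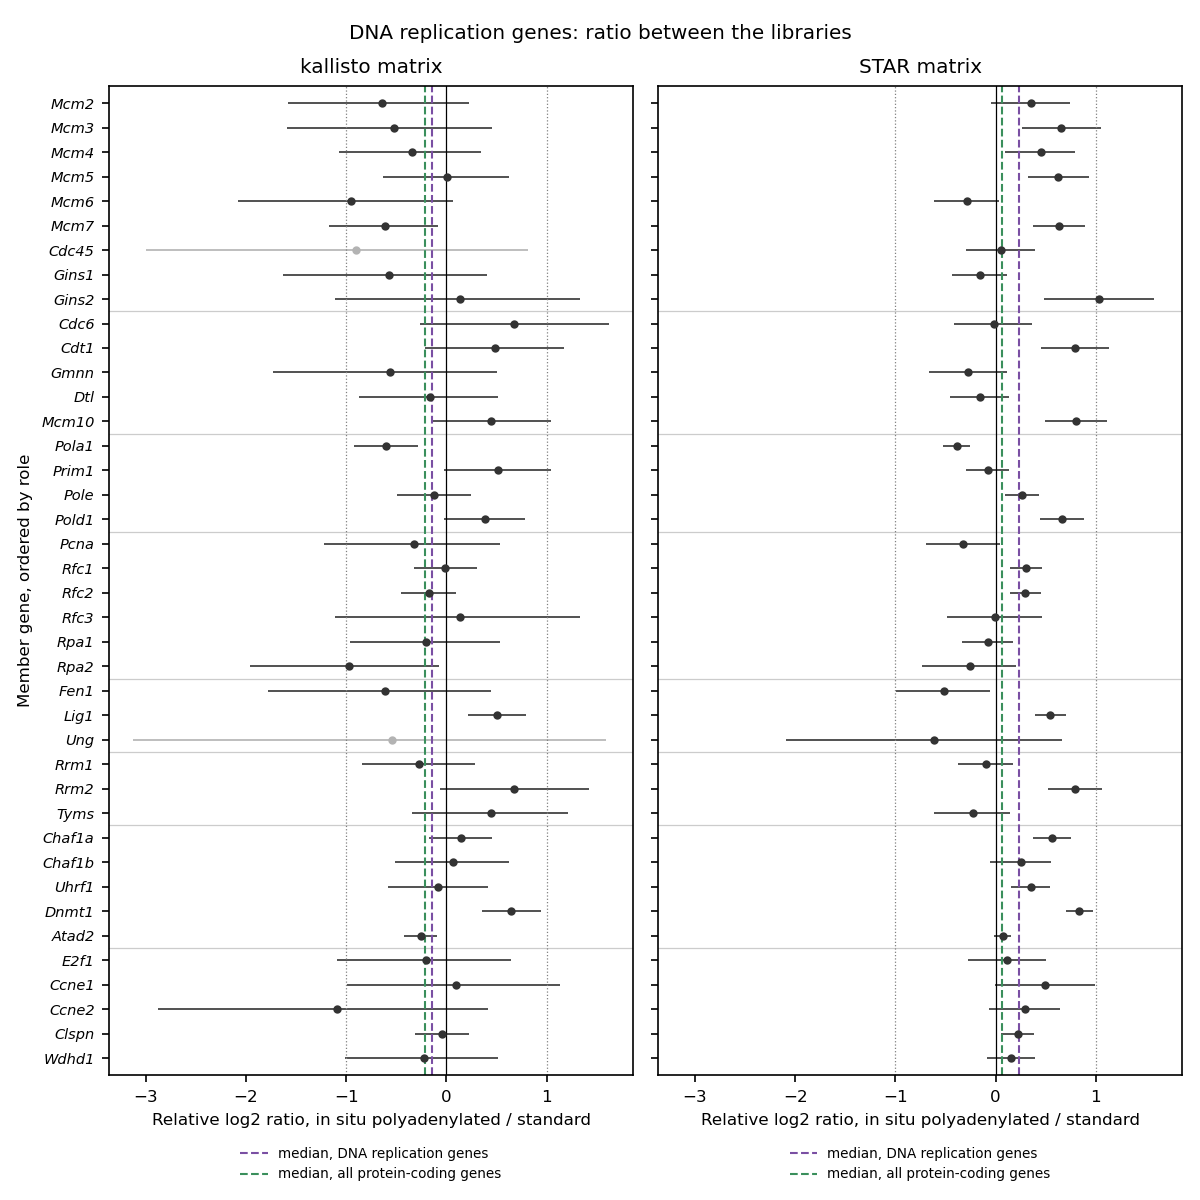
Relative log2 ratio of each member, in situ polyadenylated over standard, by kallisto (left) and STAR (right), with 95% exact conditional intervals for counting error; grey points had under 20 UMIs, dotted lines mark 2-fold. The members' median (purple, -0.14 and 0.24) lies near that of all protein-coding genes (green, -0.21 and 0.062) in each panel.

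Helicase genes were counted sparsely by kallisto, and their values differed between the matrices. The 9 genes had 174 and 380 kallisto UMIs, the in situ polyadenylated count given first here and below, with a median relative log2 ratio of -0.55 over the 8 tested. By STAR they had 1120 and 1858 UMIs, and the median was 0.45. Mcm7, a subunit of the Mcm ring, was the most counted, with 42 and 103 kallisto UMIs and a relative log2 ratio of -0.62 (-1.17 to -0.085). Its 225 and 297 STAR UMIs gave 0.63 (0.38 to 0.89), so its intervals lay on opposite sides of 0. Mcm7 hosts the microRNA genes Mir25, Mir93 and Mir106b in its body and overlaps Ap4m1 and Cops6 on the other strand, and the part of these overlaps in its counts was not tested. Mcm5 had 37 and 59 kallisto UMIs, a relative log2 ratio of 0.0049 (-0.63 to 0.62) and a STAR value of 0.63 (0.32 to 0.93). Mcm4 had 27 and 55 UMIs, with -0.35 (-1.07 to 0.34) by kallisto and 0.45 (0.097 to 0.80) by STAR. Mcm2 had 16 and 40 UMIs, and its relative log2 ratio was among the 5 lowest at -0.64 (-1.58 to 0.22), against 0.35 (-0.049 to 0.74) by STAR.

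The remaining ring subunits and the helicase activators had few transcript-matched UMIs. Mcm6 had 11 and 34 kallisto UMIs and a relative log2 ratio of -0.95 (-2.08 to 0.065), while 112 and 280 STAR UMIs gave -0.29 (-0.62 to 0.033). It was the 1 ring subunit below 0 by both matrices. Mcm3 had 13 and 30 UMIs, with -0.53 (-1.59 to 0.45) by kallisto and 0.66 (0.26 to 1.05) by STAR. Cdc45, which joins the ring to activate it, had 4 and 12 kallisto UMIs and was not tested. STAR counted 109 and 215 for Cdc45, giving 0.054 (-0.29 to 0.39). Of the GINS subunits, Gins1 had 13 and 31 kallisto UMIs against 156 and 356 by STAR, and lay below 0 by both. Gins2 had 11 and 16 kallisto UMIs and 59 in each library by STAR, where equal counts gave the highest relative value of any member, 1.03 (0.49 to 1.58). Gse1 overlaps Gins2 on the other strand.

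Licensing genes, which load the helicase and stop it being loaded again, were grouped with the fork factor Mcm10, and these 5 fell on both sides of 0. By kallisto 3 of 5 lay above 0 and 2 below, with a median relative log2 ratio of 0.45 (lowest -0.56, highest 0.68). By STAR 2 lay above and 3 below, with a median of -0.018. Cdt1, the loading factor, had 35 and 40 kallisto UMIs and relative log2 ratios of 0.49 (-0.21 to 1.18) by kallisto and 0.79 (0.45 to 1.13) by STAR. Cdc6, its partner, had 21 UMIs in each library by kallisto, a relative value of 0.68 (-0.27 to 1.62) that was the highest of the members together with Rrm2. STAR put Cdc6 at 83 and 172 UMIs and at -0.018 (-0.41 to 0.37). Gmnn, the geminin gene whose product inhibits Cdt1, had 11 and 26 UMIs and lay at -0.56 (-1.73 to 0.50) by kallisto and -0.27 (-0.67 to 0.11) by STAR. Dtl, part of a ligase that has Cdt1 destroyed, had 29 and 52 UMIs and lay at -0.16 by both. Mcm10, a fork factor that is not a ring subunit, had 46 and 54 UMIs and lay at 0.45 (-0.15 to 1.04) by kallisto and 0.80 (0.49 to 1.11) by STAR.

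Polymerase genes fell on both sides of 0. Pola1, the catalytic subunit of polymerase alpha, had 118 and 286 kallisto UMIs and a relative log2 ratio of -0.60 (-0.92 to -0.28). With 624 and 1671 STAR UMIs it lay at -0.39 (-0.52 to -0.25), the 1 member with both intervals below 0. Its gene body, 327449 nt on the X chromosome (GRCm39 chrX:92348365-92675813), was the longest of the members, and 95.8% of it was intron. Prim1, the primase subunit that partners it, had 58 and 65 kallisto UMIs and lay at 0.51 (-0.023 to 1.05), but at -0.075 (-0.29 to 0.14) with 261 and 563 STAR UMIs. Pole, the leading strand polymerase, had 100 and 174 kallisto UMIs, with -0.12 (-0.49 to 0.24) by kallisto and 0.27 (0.094 to 0.44) by STAR. Pold1, of the lagging strand polymerase, had 96 and 118 UMIs and lay above 0 by both, at 0.38 (-0.024 to 0.78) and 0.66 (0.44 to 0.88).

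Among clamp, clamp loader and single-strand binding genes, the loader subunits Rfc1 and Rfc2 held most of the UMIs. Rfc2 had 177 and 320 kallisto UMIs and Rfc1 139 and 224, with relative log2 ratios of -0.18 (-0.45 to 0.093) and -0.010 (-0.33 to 0.30). By STAR both lay at 0.30, with intervals of 0.14 to 0.45 for Rfc2 and 0.15 to 0.46 for Rfc1. Pcna, the sliding clamp and a common protein marker of S phase, had 18 and 36 kallisto UMIs and lay at -0.32 by either matrix, with intervals of -1.23 to 0.53 and -0.70 to 0.045. The annotation lists 2 pseudogenes named after Pcna and 1 after Tyms, so their counts are less certain. Rpa1 and Rpa2 encode subunits that coat single-stranded DNA. Rpa2 had 14 and 44 kallisto UMIs and lay at -0.97 (-1.96 to -0.079), while its STAR value was -0.26 (-0.73 to 0.20). Rpa1 had 25 and 46 UMIs and lay at -0.20 by kallisto and -0.077 by STAR, and Rfc3 had 11 and 16 and lay at 0.14 and -0.0038.

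Lig1, the ligase that seals lagging strand fragments, was with Dnmt1 one of the 2 members whose intervals lay above 0 by both matrices. It had 193 kallisto UMIs in the in situ polyadenylated and 218 in the standard nuclei, a relative log2 ratio of 0.50 (0.22 to 0.79), and 578 and 810 STAR UMIs, 0.55 (0.39 to 0.70). Fen1, the flap nuclease that acts just before it, lay on the other side with 11 and 27 kallisto UMIs at -0.62 (-1.78 to 0.44) and 53 and 155 STAR UMIs at -0.51 (-0.99 to -0.056). Ung, which removes uracil from DNA, was the least counted, with 3 and 7 kallisto UMIs and 7 and 22 by STAR. Nucleotide supply genes had 103 and 147 kallisto UMIs in all. Rrm2, the limiting subunit of ribonucleotide reductase, had 33 UMIs in each library, a relative log2 ratio of 0.68 (-0.063 to 1.42), and lay at 0.80 (0.53 to 1.07) by STAR. Its partner Rrm1 had 42 and 81 UMIs and lay at -0.27 (-0.84 to 0.29) and -0.098 (-0.38 to 0.17). Tyms, thymidylate synthase, had 28 and 33 UMIs and lay at 0.44 by kallisto and -0.23 by STAR.

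Chromatin genes held the most UMIs of any role, 888 and 1432 by kallisto. Atad2, a bromodomain ATPase of chromatin, alone made up 17.9% of member UMIs in the in situ polyadenylated and 20.8% in the standard nuclei. Its 451 and 863 kallisto UMIs gave a relative log2 ratio of -0.26 (-0.43 to -0.092), but 1762 and 3432 STAR UMIs gave 0.072 (-0.012 to 0.16). Dnmt1, the maintenance DNA methyltransferase, had nearly equal kallisto counts, 191 and 195, and lay at 0.65 (0.35 to 0.94). By STAR it had 836 and 960 UMIs and lay at 0.83 (0.70 to 0.97), the highest STAR value after Gins2. Uhrf1, which recruits Dnmt1 to newly copied DNA, had 55 and 93 UMIs and lay at -0.080 (-0.59 to 0.42) by kallisto and 0.35 (0.15 to 0.54) by STAR. Chaf1a and Chaf1b encode subunits of the histone chaperone CAF-1. Chaf1a had 146 and 212 UMIs and lay at 0.14 (-0.17 to 0.45) and 0.56 (0.38 to 0.75), and Chaf1b had 45 and 69 and lay at 0.061 (-0.51 to 0.62) and 0.25 (-0.053 to 0.55).

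Entry and checkpoint genes ranged from well counted to sparsely counted. Clspn, the claspin gene of the fork checkpoint, had 186 and 306 kallisto UMIs and lay at -0.040 (-0.31 to 0.23) by kallisto and 0.22 (0.058 to 0.38) by STAR. Wdhd1, a fork protein that links helicase and polymerase alpha, had 24 and 45 UMIs and lay at -0.23 and 0.15. E2f1, a transcription factor of S phase entry, had 19 and 35 UMIs and lay at -0.20 (-1.09 to 0.64) and 0.12 (-0.27 to 0.50). The cyclin E genes, whose products drive entry, had few UMIs. Ccne1 had 14 and 21 UMIs and lay at 0.093 and 0.50. Ccne2 had 5 and 17 kallisto UMIs, the lowest relative value of the members at -1.09 (-2.88 to 0.41), yet 107 and 179 STAR UMIs placed it at 0.29 (-0.068 to 0.64).

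Beyond the members, 50 other replication genes showed a similar picture. By kallisto 13 of 44 tested lay above 0 and 31 below, a median of -0.24, where 5153 of 8016 protein-coding genes lay below. By STAR 27 lay above and 23 below, a median of 0.045, where 6709 of 12382 protein-coding genes lay above. By kallisto 0 of these replication genes were at least 2-fold higher and 4 lower, beside 2.76% and 10.6% of all protein-coding genes. By STAR 1 was higher and 0 lower, beside 13.1% and 2.21%. Top2a, a topoisomerase that untangles copied DNA, had 343 and 630 kallisto UMIs and lay at -0.20. Recql4, a helicase of the RecQ family, had 198 and 262 and lay at 0.27, and Pola2, the regulatory partner of Pola1, had 116 and 295 and lay at -0.67. Of the 63 replication-dependent histone genes, whose mRNAs end in a stem-loop in place of a poly(A) tail, 52 were tested and 50 were at least 2-fold higher in the in situ polyadenylated nuclei, with a median of 4.63 by kallisto and 4.26 by STAR. These are S phase products too, and their RNA differed far more between the libraries than that of the members. The 48 mitosis genes had medians of -0.28 and -0.0029.

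STAR counted more UMIs than kallisto for each of the 40 members in both libraries. Over members with at least 20 kallisto UMIs the STAR over kallisto ratio had a median of 3.95 in the in situ polyadenylated (25 members) and 4.37 in the standard nuclei (35 members), beside 4.46 and 5.20 over protein-coding genes with that minimum. In the standard nuclei it ran from 2.698 for Chaf1a to 11.5 for Gins1, whose body is 92.3% intron. Over these members the ratio was only weakly related to the intron share of the body. The Spearman rho was 0.085 in the in situ polyadenylated and 0.23 in the standard nuclei, against 0.54 and 0.63 over protein-coding genes with that minimum. Across the 40 members, STAR UMIs and gene body length had a Spearman rho of 0.72 in the in situ polyadenylated and 0.76 in the standard nuclei, against 0.26 in each over 12382 protein-coding genes. These points share libraries and barcodes and carry no test. The relative log2 ratio showed little relation to length, with a rho of 0.082 by kallisto and 0.0058 by STAR.

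Per kb of gene body, the order of the members changed. The sources used here do not state whether reads in introns were counted by STAR, and if they were not, the whole gene body overstates the length that gave UMIs. On this scale of STAR UMIs per kb, Atad2 was still the highest, at 42.9 in the in situ polyadenylated and 83.6 in the standard nuclei. Pola1, which had the most STAR UMIs after Atad2 in the standard nuclei, was the lowest but for Ung on this scale, at 1.91 and 5.10 against 0.78 and 2.45. Short genes moved up, with Pcna at 20.7 and 53.0, Rrm2 at 33.6 and 39.6 and Mcm7 at 28.7 and 37.9. The median member had 7.32 and 13.0. Of the members, 11 overlap another gene on the same strand, mostly microRNA genes or genes with a provisional name, and 16 overlap one on the other strand. The sources used here do not give whether STAR counts used strand, so in those genes reads of the 2 strands may not be told apart.

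**Figure D3:**
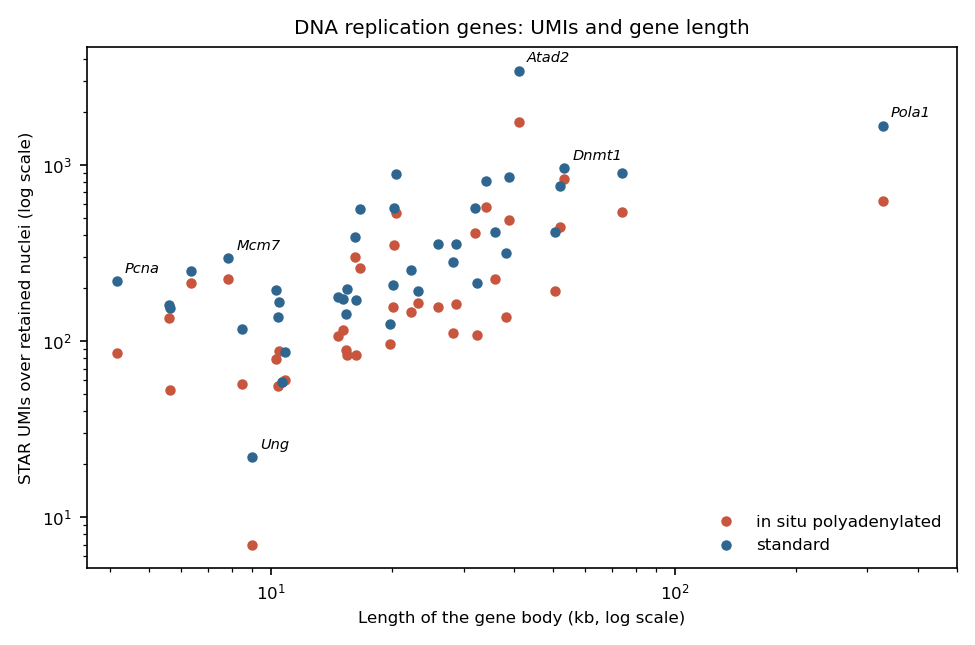
STAR UMIs over retained nuclei against gene body length in kb (both axes log) for the 40 members in each library. UMIs tend to be higher in longer members (Spearman rho 0.72 and 0.76), with Atad2 above the rest and Ung far below.

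The RNA of the members was not concentrated in nuclei over the fluid around them. Barcodes with 1 to 100 UMIs, taken as droplets with free RNA, held the members at 1413 CPM in the in situ polyadenylated and 3488 CPM in the standard library, against 1275 and 3006 CPM in nuclei. The log2 ratio of nuclei over low-UMI barcodes was -0.15 (-0.23 to -0.071) and -0.21 (-0.27 to -0.16), while that of all protein-coding UMIs was -0.16 and -0.059. Single members were mostly on the low-UMI side, with 8 of 37 above 0 in the in situ polyadenylated and 6 of 40 in the standard library. The median protein-coding gene lay on that side too, at -0.36 over 7604 genes and -0.21 over 9807, beside member medians of -0.44 and -0.49. The share of all protein-coding genes above 0 was not counted, so the 8 and the 6 cannot be read as particular to the members. No group of nuclei that should lack these genes was identified here. Nuclei that had left the cycle could be such a group, but the cells were not sorted or staged. The share of nuclei with a member UMI was therefore not set against a negative group, and how much of it came from free RNA was not tested.

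To compare single nuclei at 1 depth, STAR UMIs of protein-coding genes, without 4 genes that draw reads of ribosomal RNA (Peak1, Lars2, Zfp791 and Tmem38b), were thinned to 1000 per nucleus. This left all 1123 standard nuclei and 1284 in situ polyadenylated ones, 44 being too shallow. A standard nucleus then held 4.05 member UMIs on average (SD 2.51, median 4, highest 15) and an in situ polyadenylated one 3.31 (SD 2.28, median 3, highest 14). Before thinning the medians were 13 and 6. No member UMI was left in 43 standard nuclei (3.83%) and 87 in situ polyadenylated nuclei (6.78%), and 10 or more in 37 (3.29%) and 21 (1.64%). The counts spread in 1 broad peak rather than 2 separate ones, and their variance was 1.55 and 1.57 times the mean. At this depth Atad2 was found in 52.8% of standard and 41.1% of in situ polyadenylated nuclei (89.0% and 62.3% before thinning). Pola1 was found in 27.96% and 16.9% (66.1% and 32.8% before), and Dnmt1, the reverse, in 19.9% and 23.7% (52.9% and 41.9% before). The cells were not sorted or staged, so a nucleus with many member UMIs is not thereby shown to be in S phase.

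**Figure D4:**
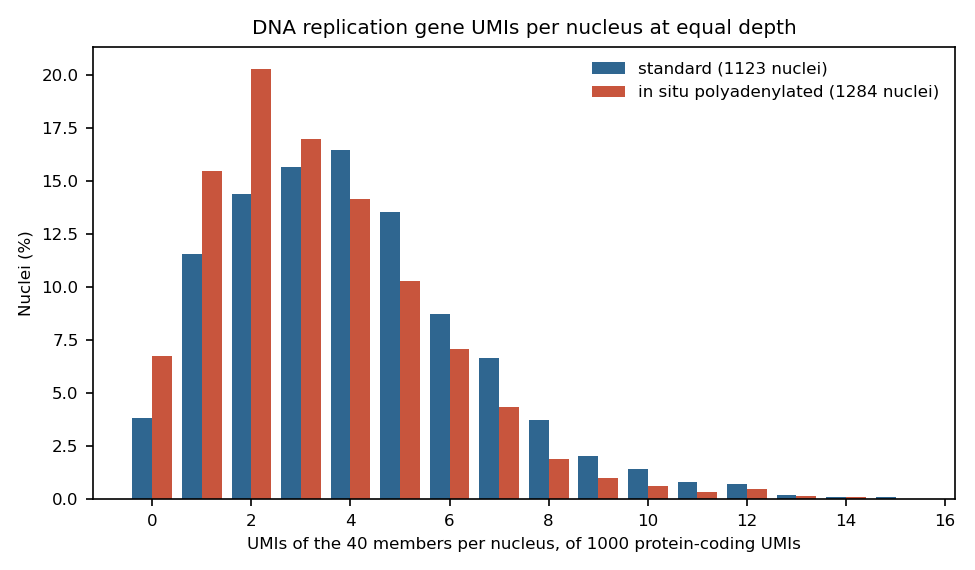
Percent of nuclei with each number of member UMIs after thinning to 1000 protein-coding UMIs. Both libraries form 1 peak with a tail, with medians of 4 in the 1123 standard and 3 in the 1284 in situ polyadenylated nuclei.

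Members were found together in the same nuclei more often than their shares predict. For each pair of members with a UMI in at least 5% of thinned nuclei, nuclei with both were divided by the number expected from the 2 shares. In the standard nuclei the median over 210 pairs of 21 members was 1.12, and 153 pairs (72.9%) were above 1, while over all pairs of 4796 protein-coding genes the median was 0.99 and 48.7% were above 1. In the in situ polyadenylated nuclei the median over 136 pairs of 17 members was 1.15, with 100 pairs (73.5%) above 1, beside 1.00 and 50.3% over all pairs of 3820 genes. Pairs share genes and nuclei, and nuclei of 1 library are not replicates, so this is a description. Of 105 pairs measured in both libraries, 79 were above 1 in the standard and 78 in the in situ polyadenylated nuclei. Which pairs were above 1 showed no agreement between the libraries beyond these shares: 57 were above 1 in both, where the product of the shares gives 58.7, 43 in 1 library only and 5 in neither.

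In the standard nuclei the most often expected pair was Pola1 with Atad2, which was seen in 176 standard nuclei where 166 were expected (1.06) and in 109 in situ polyadenylated nuclei where 89.2 were (1.22). Rfc1 with Atad2 was seen in 132 where 103 were expected (1.28) and in 94 where 78.5 were (1.20). Clspn with Atad2 was seen in 122 against 104 (1.17) and in 88 against 72.0 (1.22). Not every pair behaved so: Chaf1a with Atad2 was at 0.86 in the standard and 1.25 in the in situ polyadenylated nuclei, and Uhrf1 with Atad2 at 1.19 and 0.87. Summed over its pairs, each of the 21 members in the standard nuclei lay above 1, from 1.01 for Rrm1 to 1.23 for Chaf1b. In the in situ polyadenylated nuclei 16 of 17 did, from 1.05 for Pold1 to 1.24 for Lig1, and Wdhd1 lay at 0.97, against 1.19 in the standard nuclei. Members with a promoter match had medians of 1.09 (6 members) and 1.14 (3 members), and those without one 1.14 (15) and 1.15 (14). Of the members whose windows are shown above, Mcm5, Cdc6, Rfc3 and E2f1 were too sparse for any pair. Mcm6, Gins1 and Dtl entered pairs in the standard nuclei only, at 1.12, 1.06 and 1.02. Pola1 lay at 1.07 in the standard and 1.22 in the in situ polyadenylated nuclei.

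The ratio was lower when members were paired with genes of each of the other lists. With the other replication genes the median was 1.08 in the standard and 1.11 in the in situ polyadenylated nuclei, and with mitosis genes 1.03 and 1.02. Mitosis genes among themselves gave 1.14 and 1.19. The other replication genes among themselves gave less than the members did, 1.05 in each library, with 56.1% and 60.8% of pairs above 1. With replication-dependent histone genes the median was 1.09 over 84 pairs and 1.02 over 153. With cell cycle exit and muscle differentiation genes, such as the sarcomere gene Ttn, it was below 1, at 0.93 and 0.97, and with myoblast genes 1.00 and 1.01. Summed UMIs per thinned nucleus ordered the lists otherwise in part: histone genes, which had the highest median of the other lists by pairs in the standard nuclei, came after other replication and mitosis genes by sums. Their Pearson r with the members over 1123 standard and 1284 in situ polyadenylated nuclei was 0.28 and 0.28 for other replication genes, 0.13 and 0.083 for mitosis genes, 0.093 and 0.089 for histone genes, -0.045 and -0.0047 for myoblast genes and -0.12 and -0.091 for exit and differentiation genes. These are weak correlations of sparse counts that share a library and a fixed total per nucleus. The Spearman rho for the last list was nearer 0, at -0.044 and -0.0057, and its counts were very uneven, with a variance 23.4 and 34.4 times the mean.

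**Figure D5:**
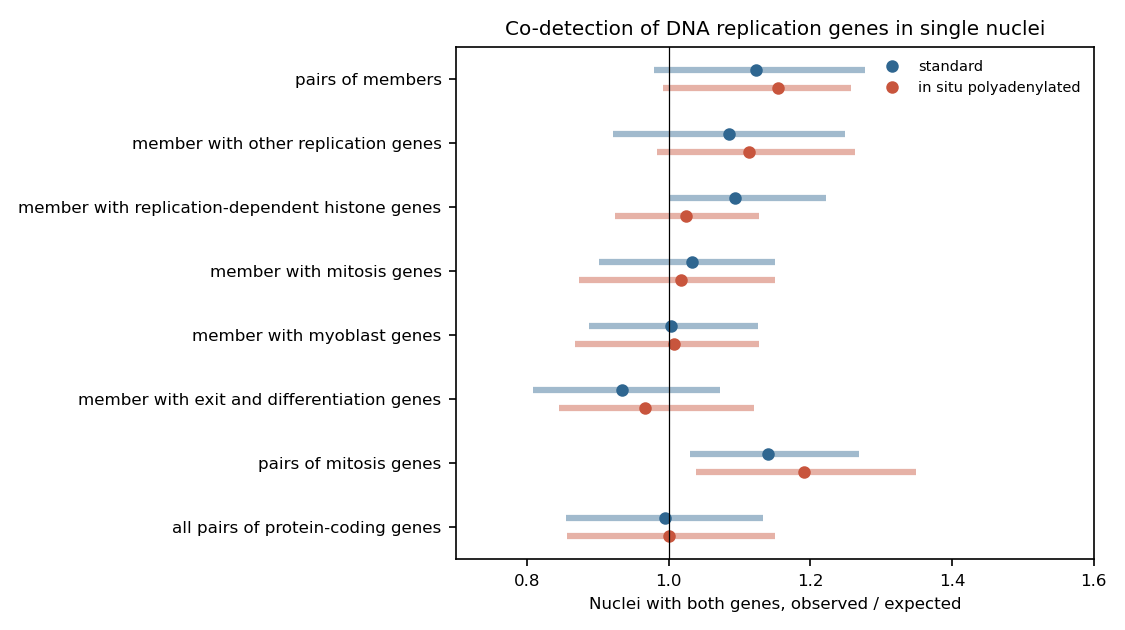
Nuclei with both genes over the number expected from their shares, as the median (point) and interquartile range (bar) over pairs, by kind of pair and library, after thinning. Pairs of members (1.12 and 1.15) lie to the right of all protein-coding pairs (0.99 and 1.00). Members paired with the 6 (standard) and 5 (in situ polyadenylated) exit and differentiation genes that passed the minimum have medians to the left of 1.

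Outside the members, the genes whose thinned counts followed the summed members most closely in the standard nuclei were Rif1, Atad5, Hells, Baz1b, Mki67, Srrm2, Nasp, Nsd2, Prpf4b and Wtap, of 2609 genes with a UMI in at least 10% of nuclei. Their Pearson r ran from 0.12 to 0.15, and 95% of the 2609 genes lay below 0.064. The 10 were chosen as the highest there, so lying above that level follows from the choice. Rif1, a factor of replication timing, had 0.15 in the standard and 0.12 in the in situ polyadenylated nuclei, which were not used to choose it. Atad5, which unloads the clamp, had 0.15 and 0.19, and Baz1b, a subunit of chromatin remodellers, 0.14 and 0.19. Mki67, the gene of the Ki-67 proliferation antigen, had 0.14 and 0.11. In the in situ polyadenylated nuclei 7 of the 10 lay above the level of 0.064 under which 95% of genes there fell. The other 3 did not, with Nasp at 0.053 against 0.13 in the standard nuclei, Prpf4b at 0.049 against 0.12 and Wtap at -0.024 against 0.12.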

How the data were processed

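Reads were trimmed by the authors with cutadapt 3.4 and quantified with the GRCm39 build by 2 routes. In the first, the authors matched reads to transcripts by pseudoalignment in kallisto 0.48.0 and bustools 0.41.0. These deposited values are unnormalized expected counts of UMIs, and 1.10% (in situ polyadenylated) and 2.65% (standard) of the entries were fractional. In the second, the authors aligned reads with STAR 2.7.10a, which gave deposited integer counts of UMIs, unnormalized, for some of the barcodes.

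Nuclei had more than 750 kallisto UMIs and under 5% mitochondrial UMIs, a limit that removed 0 barcodes. Doublets were not called. UMIs were summed per gene and library, and kallisto sums were rounded to whole numbers. With 1 library per group no test was possible, and differences are log2 ratios with exact conditional Poisson intervals at 95%. Co-detection used UMIs drawn without replacement to 1000 per nucleus. Both computations were tested on simulated data. Of 55414 genes, 54749 matched the GENCODE annotation used for coordinates. The low-UMI barcodes numbered 229964 and 226358.

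Values are given for members with at least 50 kallisto UMIs over both libraries (28), for the 5 highest and 5 lowest relative ratios, and more briefly for the rest. Other lists are shown by their most counted genes. The members, lists and rules were chosen with earlier results of these data known. Alternatives changed the matrix, the nuclei, the gene minimum, the scaling and the thinning. Python 3.11.15, numpy 2.4.6, scipy 1.17.1, pandas 2.3.3 and matplotlib 3.10.9 were used.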

Additional observations from a re-analysis of the deposited data

How the results depend on the processing

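The STAR matrix turned the members' median relative log2 ratio from -0.14 to 0.24, and moved the members at least 2-fold higher from 0 to 1 and lower from 1 to 0. It also changed the sign of Mcm7 (0.63 against -0.62) and Atad2 (0.072 against -0.26), whose kallisto intervals excluded 0. The cause was not tested. The median stayed within its interval, and below 0, under the other alternatives except CPM over all UMIs, where it was -1.33 with 29 members at least 2-fold lower. That scaling shifts every gene by 1 constant, the protein-coding median of -1.19. The share of all protein-coding genes at least 2-fold lower on that scale was not counted, so the 29 cannot be read as particular to the members. Members at least 2-fold lower, 1 as reported, numbered 0 with a minimum of 500 UMIs per nucleus, 0 with all barcodes deposited with the STAR matrix, 0 with members of at least 50 UMIs, and 2 without the 5% of nuclei with the most UMIs. Of 200 values of single members under other settings, 186 stayed within their interval, 12 moved and 2 are those above. Of the 200, 41 had another sign than the reported value. Intervals of sparse members are wide, so staying within them is a weak check.

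All 16 co-detection medians run stayed above 1. In the standard nuclei the median was 1.08 at 500 protein-coding UMIs, 1.09 with members in at least 2% of nuclei and 1.18 with the kallisto matrix, against 1.12. In the in situ polyadenylated nuclei it was 1.20 at 500 UMIs, 1.06 at 2000, 1.09 with members in at least 2% of nuclei, 1.27 with kallisto and 1.39 with all UMIs thinned to 2000, against 1.15. In that last setting all protein-coding pairs were at 1.10 in place of 1.00. Leaving out Atad2 and using another random seed were added after seeing the data and gave 1.13 and 1.10 in the standard and 1.16 and 1.19 in the in situ polyadenylated nuclei. No paired analysis was possible because there was 1 library per group. Depth limits the sparsest members, such as Ung with 10 kallisto UMIs in all.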
